A study of Mus musculus with 6 samples.

Results

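The genes described here encode the scaffold proteins of the postsynaptic density and the kinase CaMKII: Dlg2, Dlg3, Dlg4, Dlgap1, Shank1, Shank2, Shank3, Camk2a and Camk2b. They were found by gene symbol in the deposited tables, 9 of 19943 genes, and all 9 passed the filter on low counts. RNA of the medial prefrontal cortex of C57BL/6 mice was sequenced in 3 libraries of control mice and 3 libraries of mice socially isolated for 3 weeks after weaning, called control 1 to 3 and isolated 1 to 3 here. The samples are labelled as 6 weeks old, while the series' design text says 7 weeks. No allele, drug or transgene is named for either group, and no source used here describes the housing of the control mice. Whether each library is its own animal is not labelled, so a p-value here measures the spread between these libraries, which may be technical.

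The postsynaptic density is the protein mesh beneath the membrane of excitatory synapses on dendritic spines. Membrane-associated guanylate kinases (the Dlg proteins) bind the tails of glutamate receptors, Dlgap proteins link them to the deeper Shank proteins, and Shank proteins reach through Homer to metabotropic receptors and the actin skeleton. CaMKII is a kinase of many subunits that calcium and calmodulin switch on, that can hold itself active by phosphorylating itself, and that is needed for long-term potentiation. In forebrain most of its subunits are the alpha and beta forms.

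The 6 libraries were alike in depth, with 18226448 to 18606573 expected counts (estimated reads per gene). Markers of excitatory cortical neurons were present in every library: Slc17a7, the vesicular glutamate transporter of these cells, stood at 1563 to 1984 CPM (counts relative to library size, with TMM factors). The libraries were not alike in markers of striatal projection neurons, cells of a neighbouring region. The summed level of 12 such markers was 1030, 3335 and 313 CPM in control 1 to 3 and 509, 501 and 2399 CPM in isolated 1 to 3. Control 2 and isolated 3 therefore stood apart from the other libraries, 1 in each group, and each result below is also given without both where that matters. In bulk tissue, fewer cells of a type and less RNA per cell cannot be told apart.

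None of the 9 genes differed between isolated and control mice beyond the spread of the libraries. With edgeR's quasi-likelihood test 0 of 9 passed an adjusted p of 0.05, against 0% of 15169 genes tested, and 0 of 9 had an unadjusted p under 0.05, against 3.53% of all genes. DESeq2 and limma-voom also gave 0 of 9 at an unadjusted p under 0.05, against 331 of 19893 and 536 of 15169 genes. The values of the groups overlapped for every member, whereas they lay apart for 8.85% of all genes. All 9 means were lower in isolated libraries on the TMM scale, by a median log2 difference of -0.05 (all genes, median 0, 50.8% lower). The differences of Dlgap1 and Shank1 were so near 0 that they changed sign with log2(FPKM + 1), and that of Shank1 also with DESeq2 size factors, so this count of 9 depends on the scaling. It also depends on single libraries, since only 4 of 9 means were lower without control 3 and 5 of 9 without isolated 3. Across the 9 genes the 95% intervals reached at most from -0.37 to 0.30 in log2. A count of 0 passing does not show that the levels were equal.

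**Figure D1:**
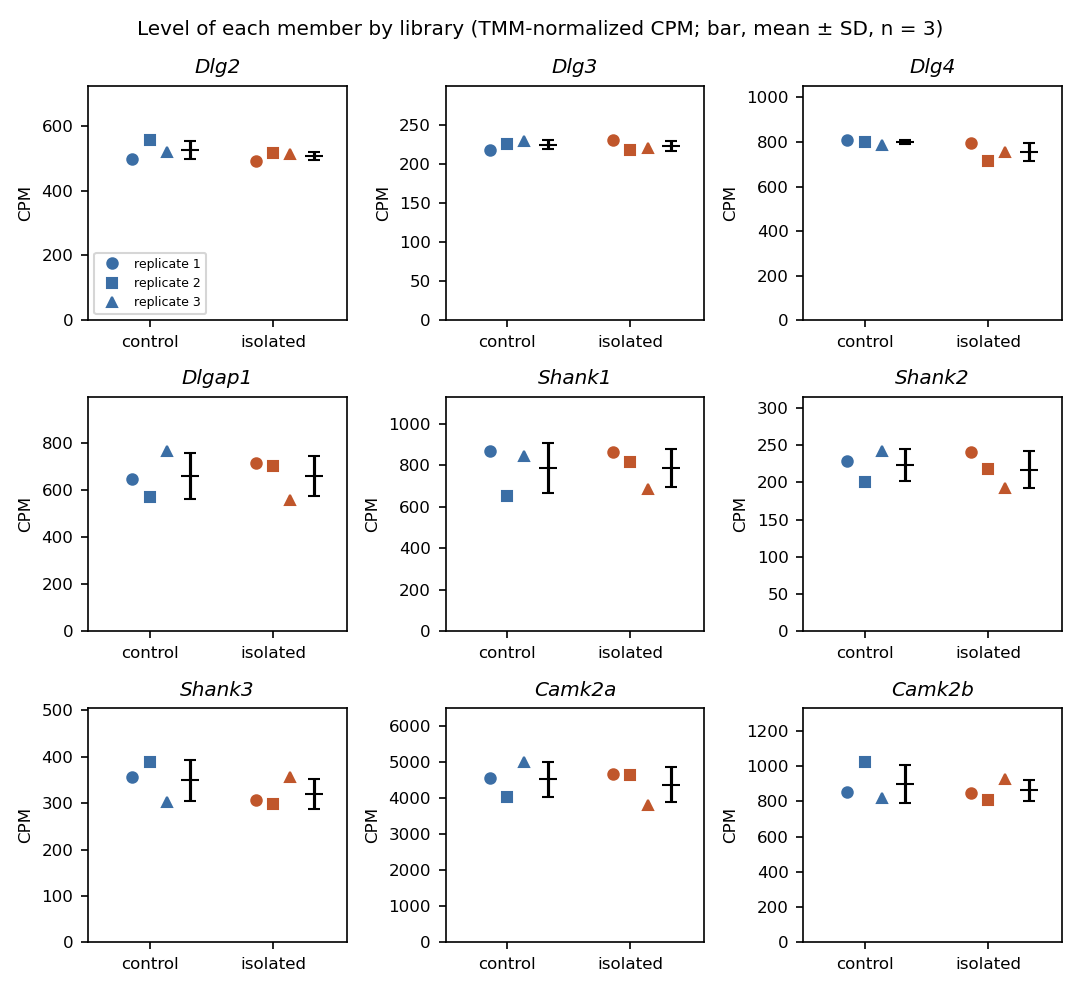
Level of each gene in CPM (vertical axis, from 0) in the 3 control and 3 isolated libraries; symbols mark the replicate number and black bars the mean ± SD of a group. The groups overlap in every panel, and Camk2a, Dlgap1, Shank1 and Shank2 are lowest in control 2 and isolated 3.

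Per length of transcript, these are abundant messages. Over the 6 libraries Camk2a had the highest level, at 890 ± 81.8 FPKM (SD, n = 6), above 99.93% of all genes. Dlg4 at 232 ± 10.5 FPKM and Camk2b at 218 ± 21.7 FPKM came next, and their ranges overlapped, with Dlg4 above Camk2b in 4 of 6 libraries. Dlgap1 at 121 ± 14.8 FPKM and Shank1 at 103 ± 11.8 FPKM followed. Their ranges also overlapped over the libraries, although Dlgap1 was above Shank1 in each of the 6. Dlg2 stood at 72.8 ± 4.1 FPKM, apart from its neighbours in the order. Dlg3 at 49.1 ± 1.47 FPKM and Shank3 at 46.6 ± 5.55 FPKM did not differ beyond their spread, with Dlg3 higher in 3 of 6 libraries. Shank2 was lowest at 36.1 ± 3.11 FPKM, still above 89.6% of genes.

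Among the Dlg genes, Dlg4 encodes PSD-95, the most studied scaffold of the excitatory synapse. Its level was 808, 801 and 788 CPM in control 1 to 3 and 797, 713 and 754 CPM in isolated 1 to 3. Isolated 2 and isolated 3 lay below every control, while isolated 1 lay within the controls. The log2 difference was -0.08 (SE 0.06, 95% interval -0.22 to 0.05), with an edgeR adjusted p of 0.999. RefSeq places Dlg4 (Entrez 13385) at positions 70017203 to 70045535 of chromosome 11 in GRCm38, the build of all positions given here.

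Dlg2 encodes PSD-93, a close relative that also anchors NMDA receptors. It was measured at 498, 555 and 520 CPM in control and 492, 517 and 512 CPM in isolated libraries. Control 2 was the highest and the other 5 libraries lay close together. The log2 difference of Dlg2 was -0.05 (SE 0.06). Dlg3 encodes SAP102, which carries NMDA receptors early in development. It stood at 218, 226 and 229 CPM in control and 230, 218 and 221 CPM in isolated libraries. Dlg3 varied least of the 9, with only a 1.06-fold range over the 6 libraries, and its interval was the narrowest (log2 difference -0.01, 95% interval -0.13 to 0.11). Dlg2 (Entrez 23859) occupies positions 90476188 to 92449246 of chromosome 7, and Dlg3 (Entrez 53310) positions 100767411 to 100818410 of chromosome X.

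The deposited length of a gene, by which the FPKM is divided, differed between libraries for genes with several transcripts. For Dlg2, with 3 RefSeq transcripts listed, it was 7078, 6925 and 7037 bases in control 1 to 3 and 7069, 7076 and 6974 bases in isolated 1 to 3. The shortest were control 2 and isolated 3. For Dlgap1, with 4 transcripts listed, the same 2 libraries had the longest values, 5448 and 5433 bases, against 5380 to 5418 bases in the others. Dlg3, with 5 transcripts, ranged from 4446 to 4618 bases, highest in control 1 and isolated 3. The lengths of Dlg4, Camk2a and Camk2b moved by less than 0.1%, and those of Shank1 and Shank3, with 1 transcript each, were constant. No test was made of these lengths, which do not enter the CPM values.

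Dlgap1 encodes GKAP, which joins the guanylate kinase domain of PSD-95 to Shank. Its level was 646, 572 and 765 CPM in control and 717, 702 and 560 CPM in isolated libraries. The lowest value of each group was that of the library with the highest striatal markers, and the spread within a group was wide, with an SD of 14.7% of the mean in control and 13.2% in isolated libraries. The counting error of the smallest Dlgap1 count, 10509, was 0.975%. The log2 difference was 0 to 2 decimals (-0.0032) with an SE of 0.13. Dlgap1 (Entrez 224997) occupies positions 69969073 to 70821413 of chromosome 17.

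The Shank genes encode the master scaffolds that lie deepest in the density. Shank1 was at 869, 651 and 846 CPM in control and 863, 816 and 684 CPM in isolated libraries. Shank2 was at 228, 200 and 242 CPM in control and 241, 218 and 192 CPM in isolated libraries. Both were lowest within each group in control 2 and isolated 3. Their log2 differences were 0 to 2 decimals (-0.0013, SE 0.13) for Shank1 and -0.04 (SE 0.10) for Shank2. Both are on chromosome 7, Shank1 (Entrez 243961) at 44308916 to 44360094 and Shank2 (Entrez 210274) at 143978077 to 144426043.

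Shank3 moved the other way between libraries. It stood at 357, 389 and 302 CPM in control and 307, 298 and 357 CPM in isolated libraries. It was highest within each group in control 2 and isolated 3, and the groups overlapped. Its log2 difference, -0.12 (SE 0.11, 95% interval -0.37 to 0.13), was the largest in size of the 9. With edgeR its unadjusted p was 0.288 and its adjusted p 0.999. With the mean striatal marker level as a covariate, the log2 difference of Shank3 was -0.11 with an SE of 0.04. The edgeR unadjusted p was then 0.0327, which did not pass adjustment (adjusted p = 0.778). In that fit 930 of 15169 genes had an unadjusted p under 0.05, and of the 9 only Shank3 did. Shank3 (Entrez 58234) occupies positions 89493013 to 89560261 of chromosome 15.

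Camk2a encodes the alpha subunit of CaMKII, whose messenger RNA is also carried into dendrites. It was measured at 4537, 4014 and 4991 CPM in control and 4664, 4634 and 3813 CPM in isolated libraries, from 71594 to 90799 counts. Again the 2 libraries with the highest striatal markers were the lowest of their groups. Camk2a ranged 1.31-fold over the 6 libraries, with a counting error of 0.374% at the smallest count, whereas the group means, 4514 ± 489 and 4370 ± 483 CPM (SD, n = 3), differed by a log2 difference of -0.05 (SE 0.11). Camk2a (Entrez 12322) occupies positions 60925307 to 60988152 of chromosome 18.

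Camk2b encodes the beta subunit, which binds actin filaments. It followed the pattern of Shank3, at 851, 1023 and 820 CPM in control and 850, 808 and 929 CPM in isolated libraries. Control 2 and isolated 3 were the highest. The log2 difference was -0.06 (SE 0.10, 95% interval -0.28 to 0.17), with an edgeR adjusted p of 0.999. Camk2b (Entrez 12323) occupies positions 5969629 to 6066357 of chromosome 11.

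**Figure D2:**
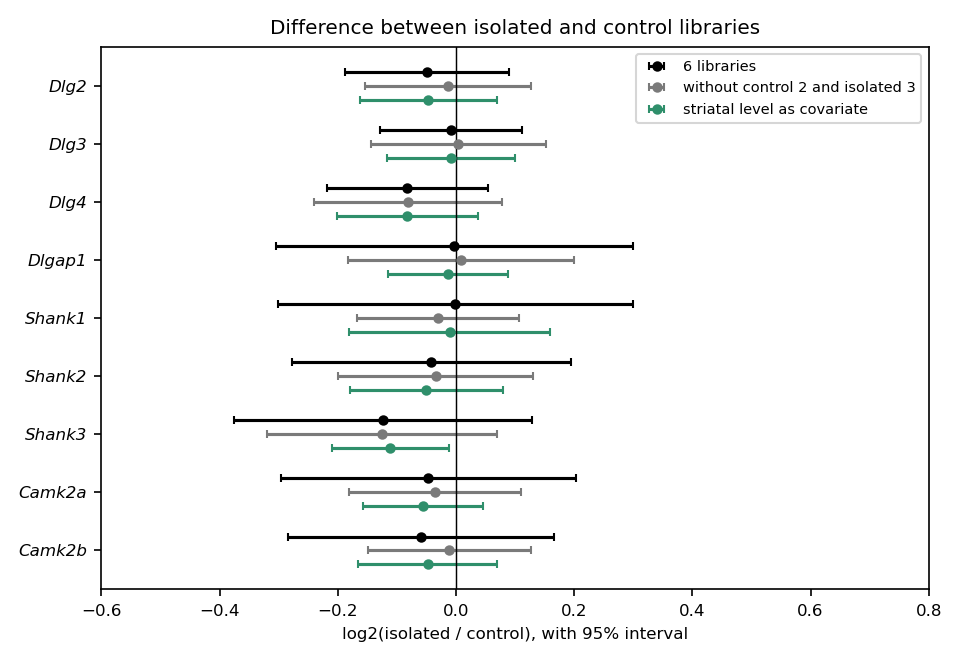
Log2 difference between isolated and control libraries (horizontal axis) with its 95% interval for each gene, with 6 libraries, without control 2 and isolated 3, and with the striatal marker level as a covariate. The intervals include 0 except that of Shank3 with the covariate (-0.21 to -0.01), and those of Dlgap1 and Camk2a are narrower with the covariate than with 6 libraries alone.

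For 6 of the 9 genes the libraries of a group thus differed in a shared pattern. Camk2a, Dlgap1, Shank1 and Shank2 were low in control 2 and isolated 3, and Shank3 and Camk2b were high there. The same 2 libraries had the lowest sums of 8 excitatory cortical neuron markers, 2114 and 2148 CPM against 2555 to 2720 CPM in the others. Among 6 interneuron markers only the general GABA genes Gad1, Gad2 and Slc32a1, which striatal projection neurons also express, were highest there, Gad2 at 277 and 262 CPM against 175 to 190 CPM in the others. The markers of interneuron classes did not follow: Pvalb was lowest in control 2 at 34.3 CPM, Vip was lowest in isolated 3 at 19.4 CPM, and Sst stood at 142 and 134 CPM in these libraries against 128 to 153 CPM. Oligodendrocyte markers did not follow them, with a sum of 3274 CPM for control 2 and 6568 CPM for isolated 3. None of the 12 striatal markers was under 1 CPM in all libraries. Their part in the levels of the scaffold genes was not tested.

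Without control 2 and isolated 3 the isolated-over-control log2 differences were -0.04 for Camk2a (SE 0.06), -0.03 for Shank1 (SE 0.06), -0.01 for Camk2b (SE 0.06), 0.01 for Dlgap1 (SE 0.08) and -0.12 for Shank3 (SE 0.08). Striatal markers were still uneven among the libraries kept, with a sum of 1030 CPM in control 1. Control 3, isolated 1 and isolated 2 had 313, 509 and 501 CPM. Shank3 stood at 357 CPM in control 1, against 302, 307 and 298 CPM in control 3, isolated 1 and isolated 2. None of the 9 had an unadjusted p under 0.05 by edgeR in these 4 libraries, against 460 of 15180 genes tested. With the striatal covariate and 6 libraries the SE of the 9 differences was 0.04 to 0.07, against 0.05 to 0.13 without it.

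**Figure D3:**
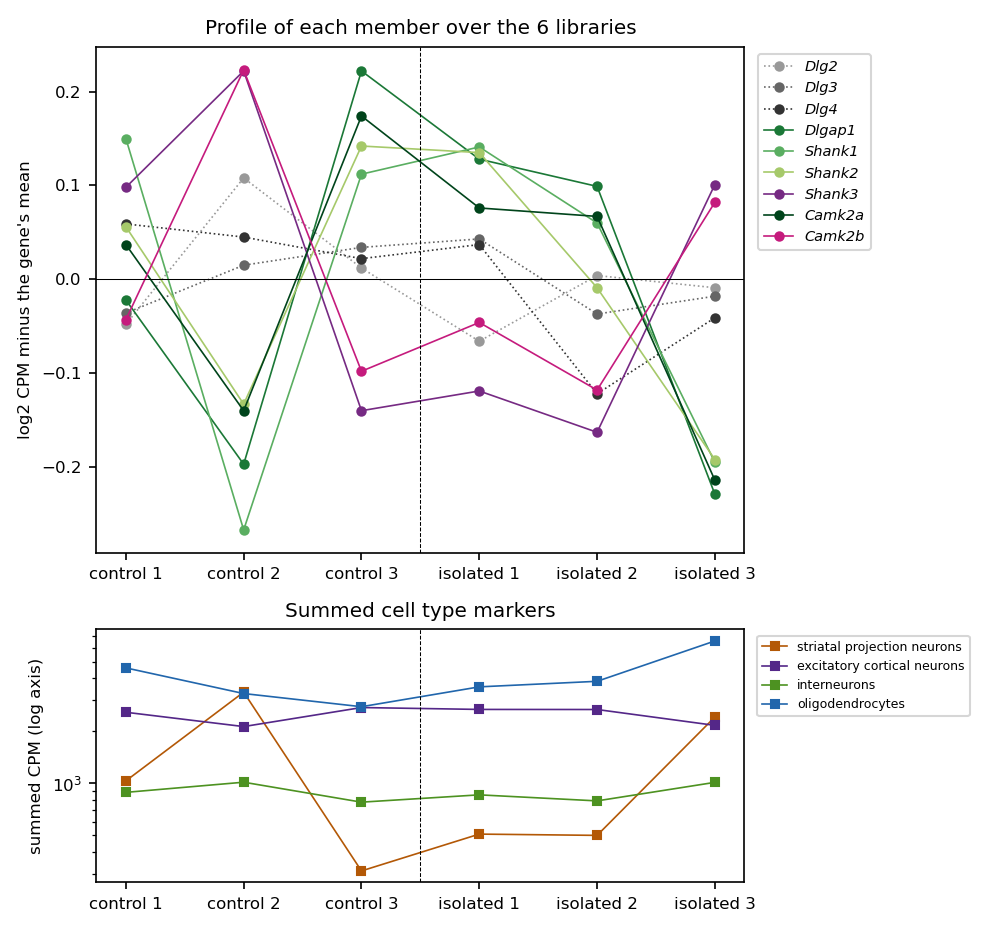
Upper panel, log2 CPM of each gene minus its mean over the 6 libraries; lower panel, summed CPM of 4 sets of cell type markers on a log axis; thin lines only join the points of 1 gene or set. In control 2 and isolated 3 the green genes (Camk2a, Dlgap1, Shank1, Shank2) are low and the purple and pink genes (Shank3, Camk2b) high, while the grey Dlg genes lie between -0.12 and 0.11.

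Promoter sequences from RefSeq (GRCm38.p6) were taken for 6 of the 9 genes, and not for Shank1, Shank2 and Camk2a. Those of 3 genes are shown because the genes took opposite courses over the libraries: Shank3 and Camk2b on one side and Dlgap1 on the other. Each sequence shown is the 250 bases before an annotated start, 5′ to 3′ on the strand of the gene, from windows without any GENCODE exon. The windows of Shank3 and Camk2b lie inside the spans given above for these genes, before a start that is not the outermost. That of Dlgap1 lies just before its span, so the windows are unlike in place. Capitals mark matches on either strand to any of 4 short motifs. GGGCGG is known as the GC box. TGACGTCA is the cAMP response element. The TATA box was searched as TATAAA. The last motif was CCAAT. Matches may overlap each other. Shank3 is at chr15:89499358-89499607 (+), Camk2b at chr11:6065749-6065998 (-) and Dlgap1 at chr17:69968823-69969072 (+).

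Shank3: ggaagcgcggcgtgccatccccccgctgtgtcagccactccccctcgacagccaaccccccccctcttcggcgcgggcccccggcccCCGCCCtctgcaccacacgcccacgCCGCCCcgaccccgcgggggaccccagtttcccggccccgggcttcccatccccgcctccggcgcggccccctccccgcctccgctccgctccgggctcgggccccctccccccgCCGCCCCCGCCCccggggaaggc
Camk2b: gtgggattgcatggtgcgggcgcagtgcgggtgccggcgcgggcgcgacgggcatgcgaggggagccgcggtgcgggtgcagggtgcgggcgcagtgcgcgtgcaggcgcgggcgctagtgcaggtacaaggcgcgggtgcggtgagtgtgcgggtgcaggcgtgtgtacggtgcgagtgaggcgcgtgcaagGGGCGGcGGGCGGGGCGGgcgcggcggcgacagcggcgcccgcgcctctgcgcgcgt
Dlgap1: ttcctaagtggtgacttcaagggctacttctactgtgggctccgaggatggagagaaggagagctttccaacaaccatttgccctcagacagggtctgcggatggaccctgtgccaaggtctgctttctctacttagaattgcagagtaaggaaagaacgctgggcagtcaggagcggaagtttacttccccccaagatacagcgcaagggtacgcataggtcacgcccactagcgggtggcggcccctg

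The Shank3 window held 82.4% G and C and the Camk2b window 78.4%, more than 99.4% and 98.1% of the 32851 windows of this length, whose median was 52.4%. They held 4 and 3 matches to GGGCGG, which occurs in 32.7% of all windows. The Dlgap1 window held 55.2% G and C and 0 matches to the 4 motifs, of which TGACGTCA occurs in 1.55% of all windows, TATAAA in 12.4% and CCAAT in 33.9%. The windows not shown held 42.8% to 45.6% G and C for Dlg2, 55.2% and 69.2% for Dlg3, 47.2% to 68% for Dlg4 and 52.4% for Dlgap1. Of the genes that were low in control 2 and isolated 3, only Dlgap1 had a window. No link between these letters and the courses of the genes can therefore be read, and it was not tested. A match describes the letters of the window only.

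Shares within each gene family do not depend on the scaling between libraries. Of the FPKM of Shank1 to Shank3, Shank3 made up 24.8%, 31.5% and 21.9% in control 1 to 3 and 21.9%, 22.5% and 29.1% in isolated 1 to 3. The share of Shank3 was larger in control 2 and isolated 3 than in the other libraries. That of Shank1 was smaller there, 49.4% and 52.3% against 56.6% to 58% elsewhere, but still the largest of the family in every library. The mean share of Shank3 was 26 ± 4.92% in control and 24.5 ± 4% in isolated libraries (SD, n = 3; exact two-sided permutation p = 0.7).

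Of the CaMKII genes Camk2a, Camk2b, Camk2d and Camk2g, Camk2a made up 73 ± 2.71% in control and 72.8 ± 2.72% in isolated libraries (exact two-sided permutation p = 0.8, n = 3). The ratio of Camk2a to Camk2b in FPKM was 4.32, 3.18 and 4.93 in control and 4.45, 4.65 and 3.33 in isolated libraries. It was lowest in control 2 and isolated 3, and the group means were 4.15 and 4.14. Camk2d, found in many tissues, made up 0.868% to 1.68% and Camk2g 6.2% to 8.69%.

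Of Dlg1 to Dlg4, Dlg4 made up 59.1 ± 1.21% in control and 58 ± 1.25% in isolated libraries. Dlg1, which encodes SAP97 and is not among the 9, was the only one of the 15 shares whose groups lay apart, at 10.2%, 10.2% and 10.5% in control and 11.1%, 11.1% and 10.8% in isolated libraries. Its exact two-sided permutation p of 0.1 is the smallest that 3 against 3 libraries allow, so no share could pass, and adjusted over 15 shares it was 0.964. Of Dlgap1 to Dlgap4, Dlgap3, a scaffold gene known for its high level in striatum, took 42% in control 2 and 40.4% in isolated 3, against 31.6% to 38.3% in the others. Dlgap1 took 29.4% and 29.6% in those 2 libraries, its smallest shares.

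**Figure D4:**
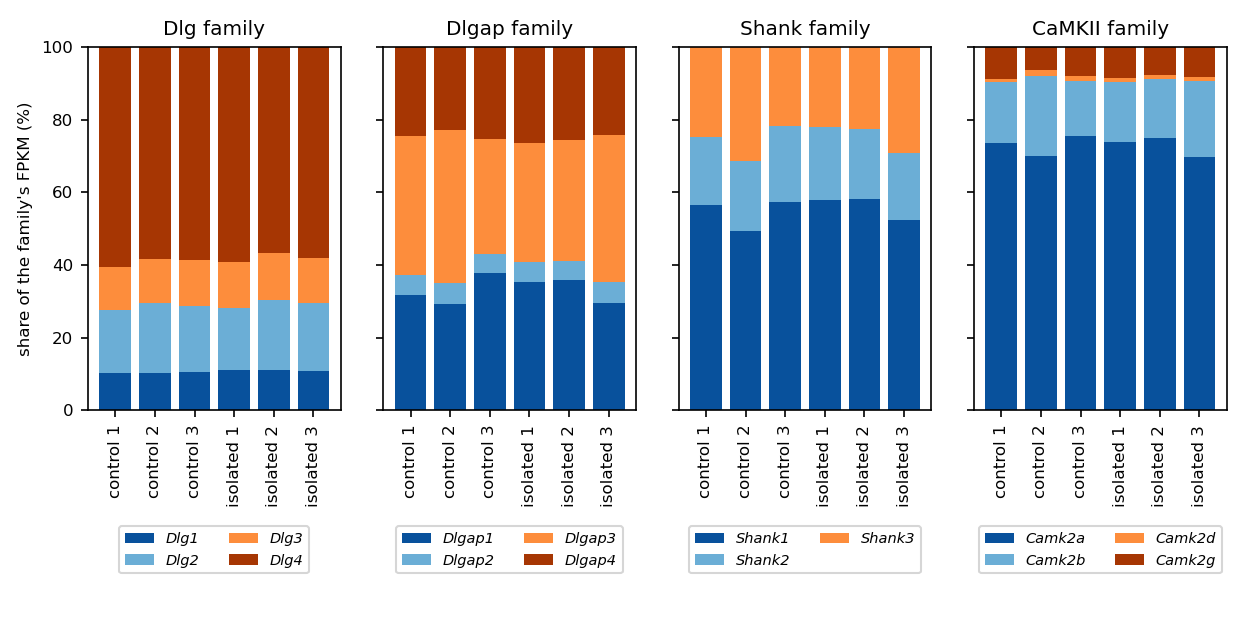
Share of each gene in the FPKM of its family (vertical axis, percent) in each of the 6 libraries. Shank3, Camk2b and Dlgap3 take more of their families in control 2 and isolated 3, and the largest difference between group means is that of Dlgap3 (-1.8 percentage points).

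Other genes of the postsynaptic density did not pass the test either. Of 95 further genes in 5 lists, all tested, 0 passed in either direction with edgeR, 1 was higher and 2 were lower at an unadjusted p under 0.05 (3.53% of all genes), and 6 had groups that lay apart (8.85% of all genes). Their median log2 difference was -0.04. Of the other Dlg-like and Dlgap genes, 0 of 10 passed in either direction (median -0.02). In that list Dlg5, a scaffold of cell junctions, was at 37.1, 38.8 and 35.2 CPM in control and 40.4, 40.7 and 42.5 CPM in isolated libraries. The difference in log2 was 0.15 (SE 0.06), with an edgeR adjusted p of 0.999. Magi3, Dlgap3 and Magi1 had the next smallest p, with log2 differences of -0.08, -0.10 and -0.06.

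Among Homer and actin partners 0 of 16 passed in either direction (median -0.03). The spine apparatus gene Synpo, the neurabin-family gene Ppp1r9b, which encodes spinophilin, Homer3 and Cttn had the smallest p, with log2 differences of -0.13, -0.08, -0.22 and 0.05. Ppp1r9b was at 1116, 1126 and 1055 CPM in control and 1046, 1024 and 1049 CPM in isolated libraries, with the groups apart.

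Of 21 further genes of the CaMKII family and its regulators 0 passed in either direction (median -0.03). The endogenous CaMKII inhibitor genes Camk2n2 and Camk2n1 had the smallest p in this list. Camk2n2 was at 100, 86.5 and 83.9 CPM in control and 79.2, 74.1 and 74.9 CPM in isolated libraries, a log2 difference of -0.25 (SE 0.08) with an edgeR unadjusted p of 0.0125 and an adjusted p of 0.999. Camk2n1 was at 2257, 2203 and 2390 CPM in control and 2194, 2148 and 1840 CPM in isolated libraries, and its difference in log2 was -0.15 (SE 0.08). The groups lay apart for both inhibitors, and neither passed adjustment. Camk1g and the calcineurin gene Ppp3ca had log2 differences of 0.35 (SE 0.21) and -0.14 (SE 0.09).

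Among GTPase signalling and anchoring genes 0 of 24 passed in either direction (median -0.02). Cnksr2, a scaffold of Ras signalling, stood at 251, 257 and 279 CPM in control and 246, 249 and 235 CPM in isolated libraries, with the groups apart and a difference in log2 of -0.11 (SE 0.06). The densin gene Lrrc7, the exchange factor gene Rasgrf2 and the kinase anchor gene Akap5 followed at -0.17, -0.17 and -0.20.

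Of the receptors and adhesion molecules that these scaffolds bind, 0 of 24 passed in either direction (median -0.05). Grin2b, the NMDA receptor subunit whose tail binds both PSD-95 and CaMKII, had the smallest p. It was at 63.7, 63.8 and 64.3 CPM in control and 58, 56.9 and 55.4 CPM in isolated libraries, a log2 difference of -0.17 (SE 0.05) with an edgeR unadjusted p of 0.0084 and an adjusted p of 0.999. All 3 isolated libraries lay below all controls. Kcnj4, Lrrtm2 and Nlgn3 had log2 differences of -0.15, 0.08 and -0.11.

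**Figure D5:**
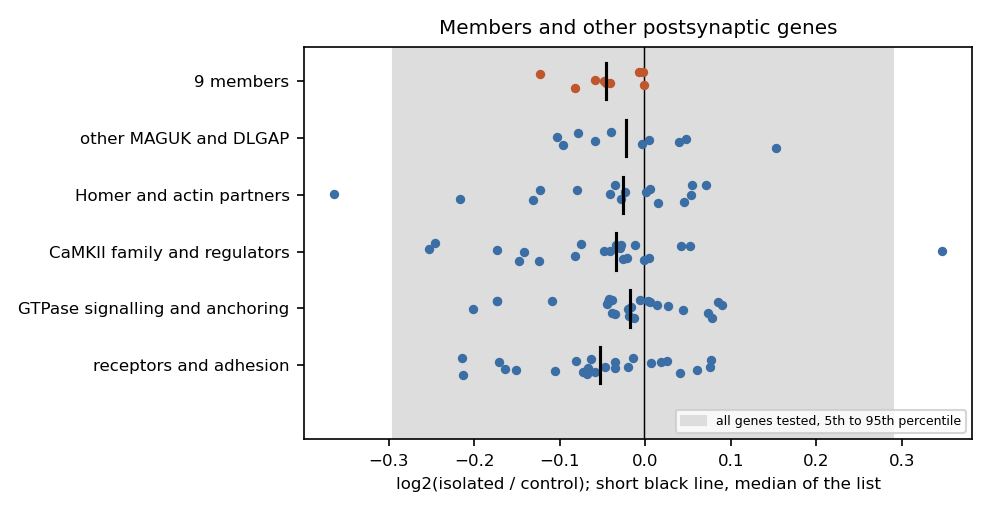
Log2 difference between isolated and control libraries (horizontal axis) of the 9 genes and of the 95 genes in 5 further lists; short black lines are list medians and the grey band spans the 5th to the 95th percentile of all genes tested. The 9 genes lie between -0.12 and 0, inside the band.

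The mean profile of the 9 genes, each centred on its own mean, ran from -0.08 in isolated 3 to 0.05 in control 3 in log2. This mean hides members that went opposite ways: in control 2 it was -0.01, with Shank1 at -0.27 and Dlgap1 at -0.20 against Shank3 and Camk2b at 0.22. Likeness to it is therefore not likeness to any 1 member. The 5 of 9998 other genes at 10 CPM or more whose profiles were most like it over the 6 libraries were Sbno1 (Pearson r = 0.992), Nr2f1 (0.992), Magi1 (0.992), Pcdha12 (0.989) and Akr1b10 (0.988). These were picked as the highest of many, from 6 points that share library and depth, so no p is given. Magi1, itself a scaffold with guanylate kinase and PDZ domains, stood at 133, 126 and 138 CPM in control and 137, 126 and 118 CPM in isolated libraries.

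Reads shared with other genes touched few of the exon bases. In GENCODE, genes on the opposite strand covered 3.22% of the exon bases of Shank1, 2.95% of Shank3 and 0.51% of Dlgap1, and a gene on the same strand 1.38% of Dlg2. The counting is not stated to use strand. Reads of 50 bases from stretches that are alike in Camk2a and Camk2b, or in the Dlg genes, were shared out by the authors' estimate, so the split between close relatives is uncertain there. Summed markers of microglia (205 to 215 CPM in isolated, 217 to 235 CPM in control) and of vascular cells (163 to 177 and 183 to 207 CPM) lay apart between the groups. Neither list shares a gene with the 9, and their part in these results was not tested.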

How the data were processed

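Total RNA of 6 libraries was sequenced to 50 bases on a BGISEQ-500, as the labels' protocols state. Per the submitters' processing notes, the tools were HISAT, Bowtie2 and RSEM and the build mm10; neither versions nor an order are given. The authors deposited expected counts per gene, not normalized, and FPKM values, scaled for gene length and library size, together with that length, per the file headers. A series-wide table was not used because no label explains the names of its 6 value columns.

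Genes were joined by Entrez identifier, absent genes set to 0, and symbols taken from RefSeq (GRCm38.p6; 19899 of 19943 matched). The entry without an identifier held at most 0.000947% of counts and was left out. Chi-square tests between libraries gave 2.9 to 20.4 per gene, above counting noise, so none was treated as a repeat.

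Rounded expected counts went into edgeR 4.0.16 (R 4.3.3): filterByExpr (minimum count 10, total 15) left 15169 genes, then TMM (factors 0.991 to 1.01), the quasi-likelihood F-test without covariates, and Benjamini-Hochberg adjustment over all tested genes at 0.05. Fold changes are log2 of isolated over control, with 95% intervals from the t distribution. Family shares used an exact two-sided permutation test. Alternatives were DESeq2 1.42.0, limma 3.58.1 (voom, and log2(FPKM + 1) or log2(FPKM + 0.1)), RLE factors, no filter, a replicate block, a striatal covariate and leaving out libraries. The test was checked on simulated data.

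The 9 genes and the lists were chosen with earlier results of these data known. Named were the 9, the other family members, the 4 genes of smallest p in each further list, and the 5 most alike in profile.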

Additional observations from a re-analysis of the deposited data

How the results depend on the processing

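No member and no gene of the further lists passed the threshold under any of the 16 alternatives run, and over all genes DESeq2 called 1 (Fkbp5) where edgeR and the others called 0. Genes at an unadjusted p under 0.05 numbered 331 with DESeq2 and 930 with the striatal covariate, against 535. Because the differences lie near 0, some changed sign. That of Shank1 (-0.0013) was 0.0002 with DESeq2, 0.0003 with RLE factors, 0.0037 with limma-voom, 0.0059 with log2(FPKM + 1), with and without a filter, and 0.006 with log2(FPKM + 0.1). That of Dlgap1 was 0.0041, 0.0041 and 0.0042 on these FPKM scales and 0.0082 without control 2 and isolated 3, where that of Dlg3 was 0.0041, the difference in share was 0.201 points for Shank2 and 0.206 for Camk2b. The cause of these changes was not tested. Leaving out 1 library at a time gave log2 differences of -0.0845 to -0.0048 for Dlg2, -0.0317 to 0.009 for Dlg3, -0.1231 to -0.0432 for Dlg4, -0.096 to 0.1152 for Dlgap1, -0.1212 to 0.0898 for Shank1, -0.1233 to 0.0379 for Shank2, -0.2169 to -0.0382 for Shank3, -0.1234 to 0.0415 for Camk2a, -0.1204 to 0.0468 for Camk2b. The differences in share of the family then lay at -0.396 to 0.656 points for Dlg2, 0.154 to 0.638 points for Dlg3, -1.72 to -0.438 points for Dlg4, -1.08 to 3.07 points for Dlgap1, -0.968 to 3.42 points for Shank1, -0.481 to 0.56 points for Shank2, -3.81 to 1.21 points for Shank3, -1.62 to 1.36 points for Camk2a, -1.76 to 1.74 points for Camk2b. Of the 9, 4 were lower without control 3 and 5 without isolated 3, against 9 with all libraries. The labels do not say whether replicate numbers mark pairs. Deviations of same-numbered libraries from their group means correlated at 0.025, -0.269 and -0.492, and no library correlated best with its own number. With 3 libraries in a group that differ in striatal markers, these correlations cannot settle whether the libraries were paired. With the replicate block 331 genes had an unadjusted p under 0.05, 0 were called, and the difference of Shank1 was 0.0036. Depth gives each member at least 3604 counts in every library. The counting error at a member's smallest count was below its SD within each group. It was not small beside the SD for Dlg3 (1.58% against 2.49% in control and 2.92% in isolated libraries). Nor was it for Dlg4 in control libraries (0.873% against 1.27%).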

Other observations

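Taken 1 by 1, the 2 sets of members that parted over the libraries had different nearest neighbours among 10006 genes at 10 CPM or more. That they differ follows from the opposite courses of the 2 sets over the same libraries and is no separate result. The neighbours were looked at after the values were seen, and the correlations are over 6 libraries, picked as the highest, with no p. Nearest to Camk2a were Tctn2 (Pearson r = 0.996), Raph1 (0.994) and Ywhah (0.994), the last of which encodes a 14-3-3 protein and stood at 990, 870 and 1106 CPM in control and 1016, 1033 and 846 CPM in isolated libraries. Nearest to Shank1 were Btbd11 (0.997) and Stx1a (0.995), which encodes the syntaxin of the presynaptic release machinery, at 336, 256 and 336 CPM in control and 334, 321 and 263 CPM in isolated libraries. Nearest to Camk2b were Dnal4 (0.995), Rgs8 (0.995), a regulator of G protein signalling, and Ric8b (0.995). Rgs8 stood at 129, 181 and 118 CPM in control and 124, 111 and 152 CPM in isolated libraries. Nearest to Shank3 were Ednrb (0.997), Tlnrd1 (0.995) and Kdm3a (0.993). None of these was named in the striatal marker list, which holds only 12 genes, so absence from it says little. Rgs8 and Ric8b were highest in control 2 and isolated 3, which follows from their being picked for likeness to Camk2b. Ric8b stood at 62.11, 101.5 and 52.72 CPM in control and 58.94, 52.97 and 74.56 CPM in isolated libraries. Which cells these RNAs came from was not tested.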
